A study of Mus musculus with 16 samples.

Results

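The genes described here are 39 skeletal muscle genes in RNA of embryonic mouse salivary glands. They are 6 factors of muscle progenitors and of myogenic commitment (Pax3, Pax7, Myf5, Myod1, Myog and Msc) and 33 genes of muscle fusion, the sarcomere, calcium release, the neuromuscular junction and muscle metabolism, and they were chosen by symbol from a list. All 39 were found among 48709 gene features. RNA had been sequenced from 4 groups of 4 libraries each: parotid gland mesenchyme, submandibular gland mesenchyme, parotid gland epithelium and submandibular gland epithelium, from wild-type ICR mice at embryonic day 13. The labels call the 4 libraries of a group independent biological replicates, and no group carries a transgene or a treatment of its own. The design text also speaks of glands of this age that were cultured for 6 days and then dissected; whether that applies to these libraries is not given in the sources used here.

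Skeletal muscle forms when progenitors that express paired-box factors switch on the basic helix-loop-helix factors Myf5 and Myod1, leave the cell cycle and turn on Myog. The cells then fuse into multinucleate fibres and assemble sarcomeres from actin, myosin, troponin and the giant proteins titin and nebulin. Salivary glands develop from oral epithelium that branches into a condensed mesenchyme of neural crest origin. The head muscles form beside it from another source, the cranial mesoderm, so skeletal muscle is not a cell type of the gland itself.

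The libraries held 16912258 to 27646844 gene counts. Levels are given as CPM (counts scaled to a library total of 1e+06), and the 4 values of a group stand in the order of replicates 1 to 4. Epithelial marker genes summed to 2873 to 3448 CPM in the 8 epithelial libraries and to 17.1 to 65.6 CPM in the 8 mesenchymal libraries, and the mesenchymal markers to 57.3 to 526 CPM and 14287 to 37367 CPM in the same libraries, so each library carried the layer on its label. 3 libraries stood apart within their groups in the muscle genes. Replicate 4 of parotid mesenchyme had the lowest value of its group for 38 of the 39 genes, at a median of 24.9% of the mean of replicates 1 to 3. Replicate 3 of submandibular mesenchyme had the highest value of its group for 32 of 39 genes, and replicate 4 of parotid epithelium for 33 of 39. Numbers in the library names form a block per group, 26 to 29 for parotid epithelium and 30 to 33 for parotid mesenchyme. The submandibular blocks are 9 to 12 for epithelium and 13 to 16 for mesenchyme. Any handling order behind those numbers cannot be told apart from the gland or the layer.

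Muscle genes were higher in parotid than in submandibular mesenchyme, progenitor factors and contractile genes alike. By the quasi-likelihood test of edgeR, adjusted by Benjamini-Hochberg over the 18191 genes tested, 35 of the 37 members tested were called higher in parotid mesenchyme at an adjusted p under 0.05 and 0 were called lower, where 20.8% of all genes were called higher and 13.7% lower. Of members lower in the parotid, edgeR gave 1 (Pax3) at an unadjusted p under 0.05 and DESeq2 called 0; in the 4 other comparisons below, where 0 members were called lower or negative, both counts were 0. Tnnc2 and Ckm had too few counts for the test. The median log2 fold change over the 37 tested members was 2.58, against 0.04 over all genes tested. Called members differed by 2.13-fold (Ryr1) to 13.9-fold (Cacna1s). All 4 parotid libraries lay above all 4 submandibular libraries for 25 members, where 21.7% of all genes did so. In these bulk samples, fewer muscle cells and less of each RNA per muscle cell cannot be told apart.

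The sum over the 6 progenitor factors was 340.4, 443, 347 and 117 CPM in parotid mesenchyme, against 41.1, 64.1, 99.8 and 53.5 CPM in submandibular mesenchyme. The sum over the 33 other genes was 2358, 2122, 1875 and 498 CPM in parotid mesenchyme, against 225, 299, 459.9 and 260.2 CPM in submandibular mesenchyme. Neither sum overlapped between the glands, but parotid replicate 4 lay much nearer to submandibular replicate 3 than to its own group. The sum of the 33 genes was 6.93, 4.79, 5.41 and 4.27 times the sum of the progenitor factors in parotid mesenchyme, against 5.48, 4.66, 4.61 and 4.87 times in submandibular mesenchyme. These ratios overlapped although the totals differed. Myog, which marks committed cells, made up most of the progenitor sum in each mesenchymal library, such as 213 of 340.4 CPM in parotid replicate 1. The ratio thus mainly set Myog against the 33 genes and says little about Pax7 or Myf5. Without parotid replicate 4, 37 of 38 members tested were called higher, with a median log2 fold change of 2.93, where 19.8% of all genes were called higher.

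**Figure D1:**
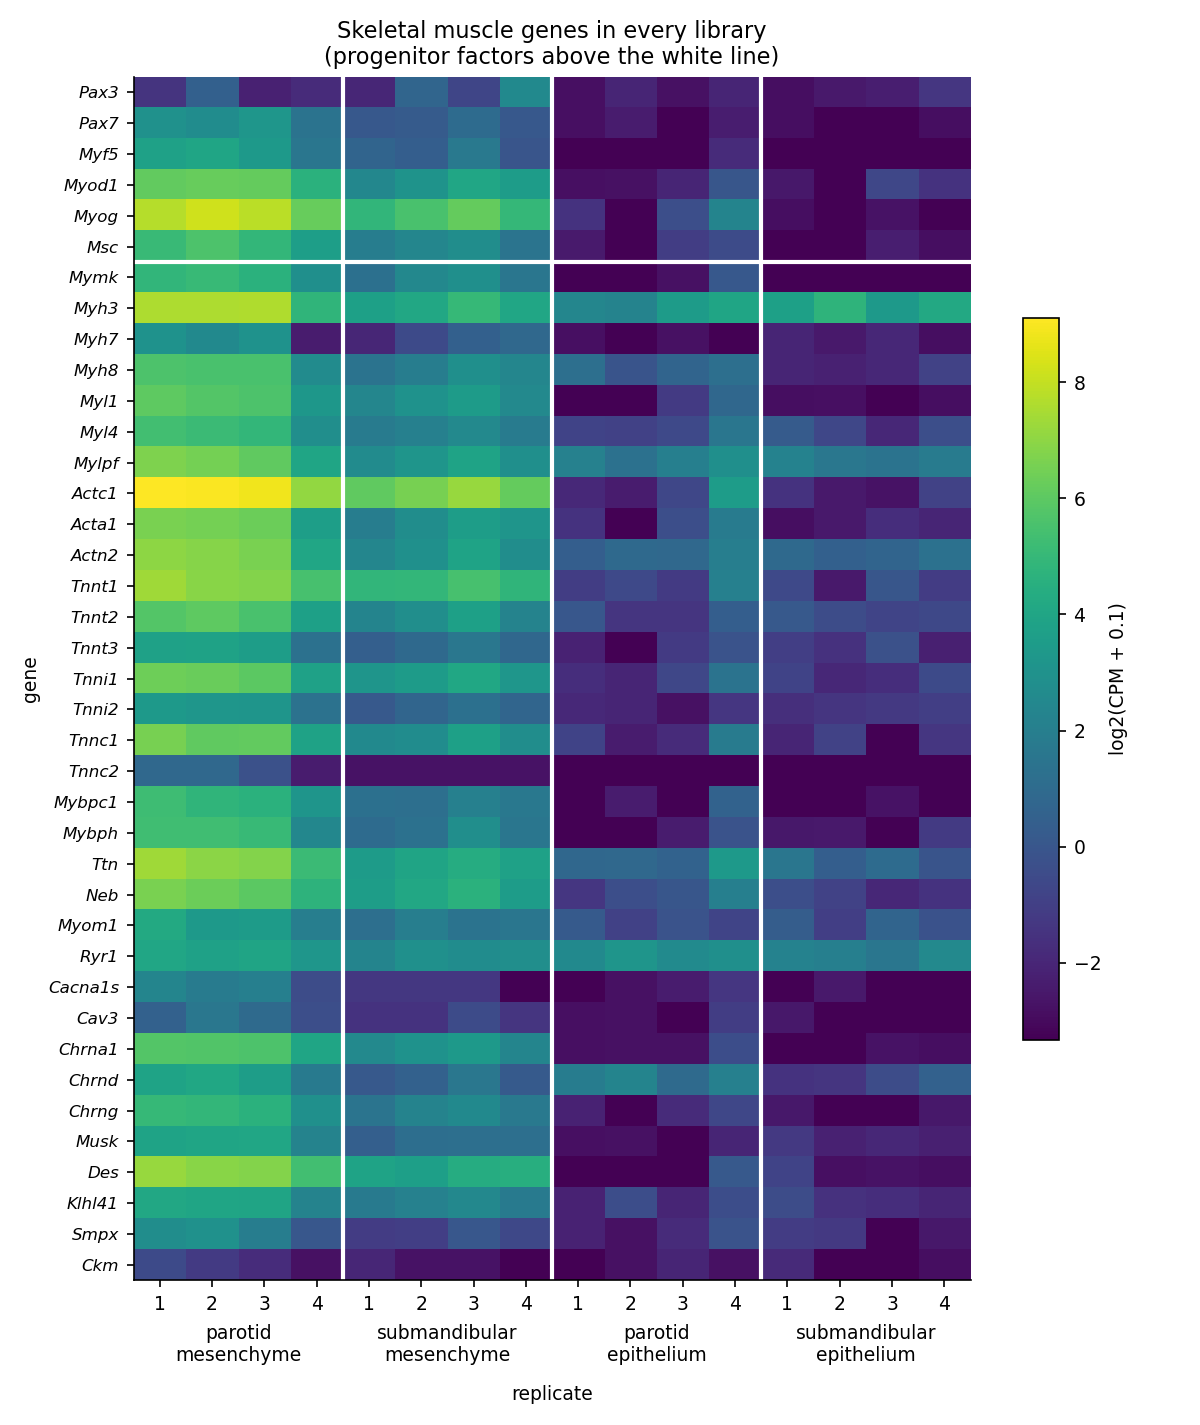
Level of each of the 39 skeletal muscle genes in each of the 16 libraries, as log2(CPM + 0.1), with the progenitor factors above the white line and the other genes below it. Low values are dark. Replicate 4 of parotid mesenchyme is darker than the rest of its group for 38 of 39 genes, and Myh3, Mylpf, Actn2 and Ryr1 stay at 1 CPM or more in every epithelial library.

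**Figure D2:**
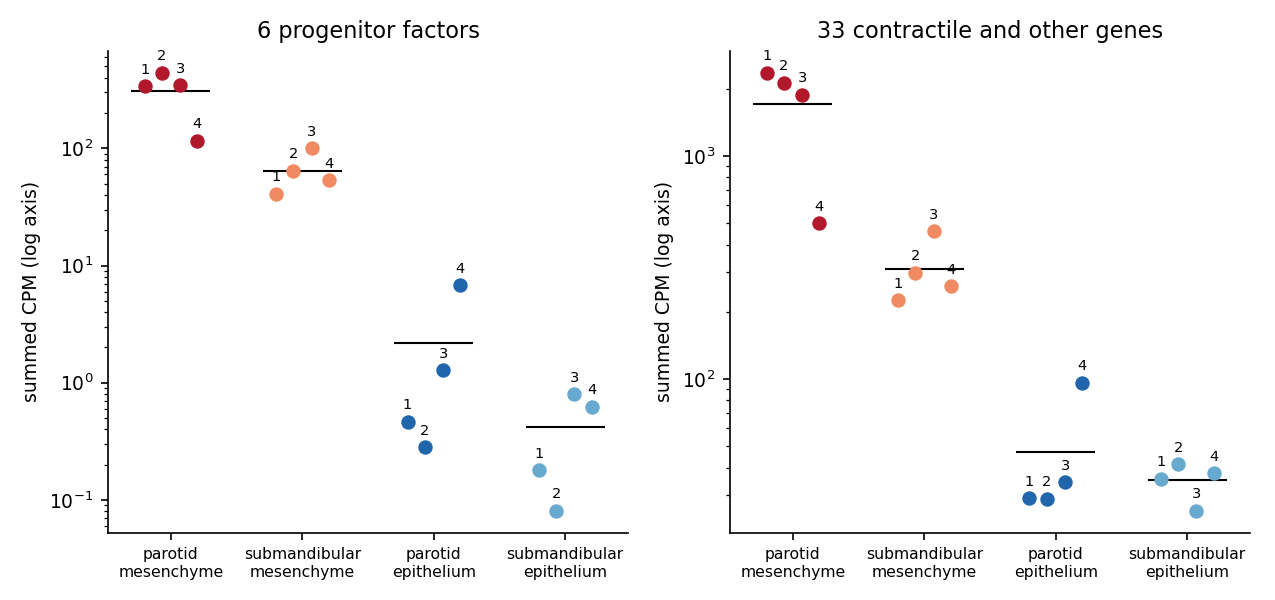
Summed CPM of the 6 progenitor factors (left) and of the 33 other genes (right) in each library, on log axes, with the replicate number beside each point and a line at the mean of the group. Parotid mesenchyme replicates 1 to 3 lie at 340.4 to 443 and at 1875 to 2358 CPM, replicate 4 at 117 and 498 CPM, and parotid epithelium replicate 4 lies above the other 7 epithelial libraries in both panels.

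Promoters are shown because the members moved together and because the myogenic factors bind E-boxes, the sequence CANNTG. RefSeq promoters (GRCm38.p6, 250 bases before to 50 after each start) were matched for 31 of the 39 members, 34 promoters in all, and each motif was searched on both strands. The form CAGCTG was in 16 of 34 (47.1%), against 16.3% of 32851 promoters, the form CACCTG in 10 (29.4%), against 20.2%, and CANNTG, which includes both, in 29 (85.3%), against 72.3%. The MEF2 consensus was in 3 (8.82%), against 3.19%, and the CArG box, which serum response factor binds, was in 3 (8.82%), against 1.63%. Such a match is a description of the letters and not evidence that a factor binds. Shown are the 250 bases before the start for 6 members that were high in parotid mesenchyme, with E-boxes in capitals for Myog and CAGCTG and CArG boxes in capitals for the others, each read 5′ to 3′ on the gene's strand.
Myog, plus strand, chr1:134289754-134290003: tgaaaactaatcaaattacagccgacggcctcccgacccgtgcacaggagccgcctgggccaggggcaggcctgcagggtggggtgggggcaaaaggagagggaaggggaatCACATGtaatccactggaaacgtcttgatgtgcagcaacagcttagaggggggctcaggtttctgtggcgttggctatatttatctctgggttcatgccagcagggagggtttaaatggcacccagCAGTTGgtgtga
Acta1, minus strand, chr8:123894776-123895025: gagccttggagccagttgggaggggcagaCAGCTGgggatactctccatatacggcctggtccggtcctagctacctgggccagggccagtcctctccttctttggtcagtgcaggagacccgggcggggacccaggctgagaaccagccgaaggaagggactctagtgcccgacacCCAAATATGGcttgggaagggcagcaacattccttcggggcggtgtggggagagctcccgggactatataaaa
Actc1, minus strand, chr2:114052876-114053125: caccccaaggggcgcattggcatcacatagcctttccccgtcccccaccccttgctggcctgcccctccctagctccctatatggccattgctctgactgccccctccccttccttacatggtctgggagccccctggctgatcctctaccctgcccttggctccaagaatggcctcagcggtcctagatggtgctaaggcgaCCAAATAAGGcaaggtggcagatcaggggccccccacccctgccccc
Mylpf, plus strand, chr7:127211358-127211607: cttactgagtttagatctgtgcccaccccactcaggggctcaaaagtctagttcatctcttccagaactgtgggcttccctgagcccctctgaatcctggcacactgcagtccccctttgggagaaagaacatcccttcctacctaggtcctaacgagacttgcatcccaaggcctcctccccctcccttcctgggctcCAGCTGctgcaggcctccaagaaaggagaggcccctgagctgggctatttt
Chrna1, minus strand, chr2:73580339-73580588: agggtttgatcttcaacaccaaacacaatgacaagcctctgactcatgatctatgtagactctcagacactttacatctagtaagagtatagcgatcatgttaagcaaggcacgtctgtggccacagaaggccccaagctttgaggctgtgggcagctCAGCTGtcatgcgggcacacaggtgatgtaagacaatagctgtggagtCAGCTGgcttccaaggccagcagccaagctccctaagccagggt
Chrng, plus strand, chr1:87205561-87205810: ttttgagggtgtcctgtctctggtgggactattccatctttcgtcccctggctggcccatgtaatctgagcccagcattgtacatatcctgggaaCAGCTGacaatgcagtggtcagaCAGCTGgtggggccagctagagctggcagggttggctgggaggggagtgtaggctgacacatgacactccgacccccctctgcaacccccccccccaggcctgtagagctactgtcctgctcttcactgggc

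The Myog window holds E-boxes starting 138 and 12 bases before the start. Acta1 and Actc1 each hold a CArG box, 73 and 47 bases before the start, and Acta1 also holds CAGCTG at 221. Chrna1 and Chrng each hold a pair of CAGCTG sites, at 92 and 44 and at 155 and 132 bases before the start, and Mylpf holds one at 51. The levels of these 6 genes in every library follow with their groups.

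Among the progenitor factors, 5 of 6 were called higher in parotid mesenchyme, and Pax3 was the exception. Pax7, which marks muscle progenitors and later the satellite cells, had 7.83, 6.51, 9.19 and 2.56 CPM in parotid mesenchyme, against 0.969, 1.10, 1.91 and 0.979 CPM in submandibular mesenchyme (edgeR log2 fold change 2.39 ± 0.41, SE, adjusted p = 0.000217). Myf5, a determination factor, had 13.9, 15.9, 10.1 and 2.84 CPM in parotid mesenchyme, against 1.53, 1.20, 3.20 and 0.870 CPM in submandibular mesenchyme (edgeR log2 fold change 2.65 ± 0.59, SE, adjusted p = 0.00323). For both genes the lowest parotid library was replicate 4, which for Myf5 lay below submandibular replicate 3.

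Myod1, the second determination factor, had 70.9, 74.6, 73.1 and 24.1 CPM in parotid mesenchyme, against 5.35, 8.23, 16.4 and 11.8 CPM in submandibular mesenchyme (edgeR log2 fold change 2.54 ± 0.52, SE, adjusted p = 0.00141). Myog, which drives terminal differentiation and marks committed cells, had 213, 295, 224 and 74.2 CPM in parotid mesenchyme, against 29.3, 46.98, 71.04 and 31.2 CPM in submandibular mesenchyme (edgeR log2 fold change 2.17 ± 0.61, SE, adjusted p = 0.0135). Msc, also called musculin or MyoR, a helix-loop-helix factor of branchial arch muscle precursors, had 34.7, 49.4, 30.2 and 12.6 CPM in parotid mesenchyme, against 3.77, 5.09, 6.70 and 2.66 CPM in submandibular mesenchyme (edgeR log2 fold change 2.80 ± 0.48, SE, adjusted p = 0.000286). The DESeq2 adjusted p of Myog was 0.0962, at a log2 fold change of 2.16. The glands did not overlap in any of these 3 genes, and the smallest gap was that for Myog, between 74.2 CPM in parotid replicate 4 and 71.0 CPM in submandibular replicate 3.

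Pax3, a factor of trunk and limb muscle precursors that is also used in the neural crest, had 0.268, 1.31, 0.118 and 0.187 CPM in parotid mesenchyme, against 0.153, 1.55, 0.516 and 5.98 CPM in submandibular mesenchyme. It was low throughout, its highest value was submandibular replicate 4, and the groups overlapped. The fitted difference did not pass the test (edgeR log2 fold change -2.15 ± 0.89, SE, adjusted p = 0.0725), and it was -0.69 without submandibular replicate 4. It was called lower by edgeR without parotid replicate 2 (adjusted p = 0.0159), submandibular replicate 1 (0.0273) or submandibular replicate 3 (0.0477), and with no scaling beyond library totals (0.0493).

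In the epithelium the progenitor factors were near the limit of detection. Myf5 had 4 counts, all in replicate 4 of parotid epithelium (0.193 CPM), and 0 in submandibular epithelium, a level at least 1.52-fold higher in the parotid with the submandibular group set at a floor of 3 counts. Myog had 0.254, 0, 0.706 and 4.81 CPM in parotid epithelium, against 0.0359, 0, 0.0530 and 0 CPM in submandibular epithelium. Myod1 had 0.0424, 0.0469, 0.141 and 0.915 CPM in parotid epithelium, against 0.0718, 0, 0.530 and 0.256 CPM in submandibular epithelium. Both peaked in replicate 4 of parotid epithelium. Msc had 0.0847, 0, 0.377 and 0.626 CPM in parotid epithelium, against 0, 0, 0.106 and 0.0366 CPM in submandibular epithelium, again with its maximum in that replicate. Pax7 had 0.0424, 0.0937, 0 and 0.0963 CPM in parotid epithelium, against 0.0359, 0, 0 and 0.0366 CPM in submandibular epithelium, and Pax3 had 0.0424, 0.141, 0.0471 and 0.144 CPM in parotid epithelium, against 0.0359, 0.0805, 0.106 and 0.293 CPM in submandibular epithelium, at most 0.096 and 0.293 CPM over the 8 epithelial libraries.

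**Figure D3:**
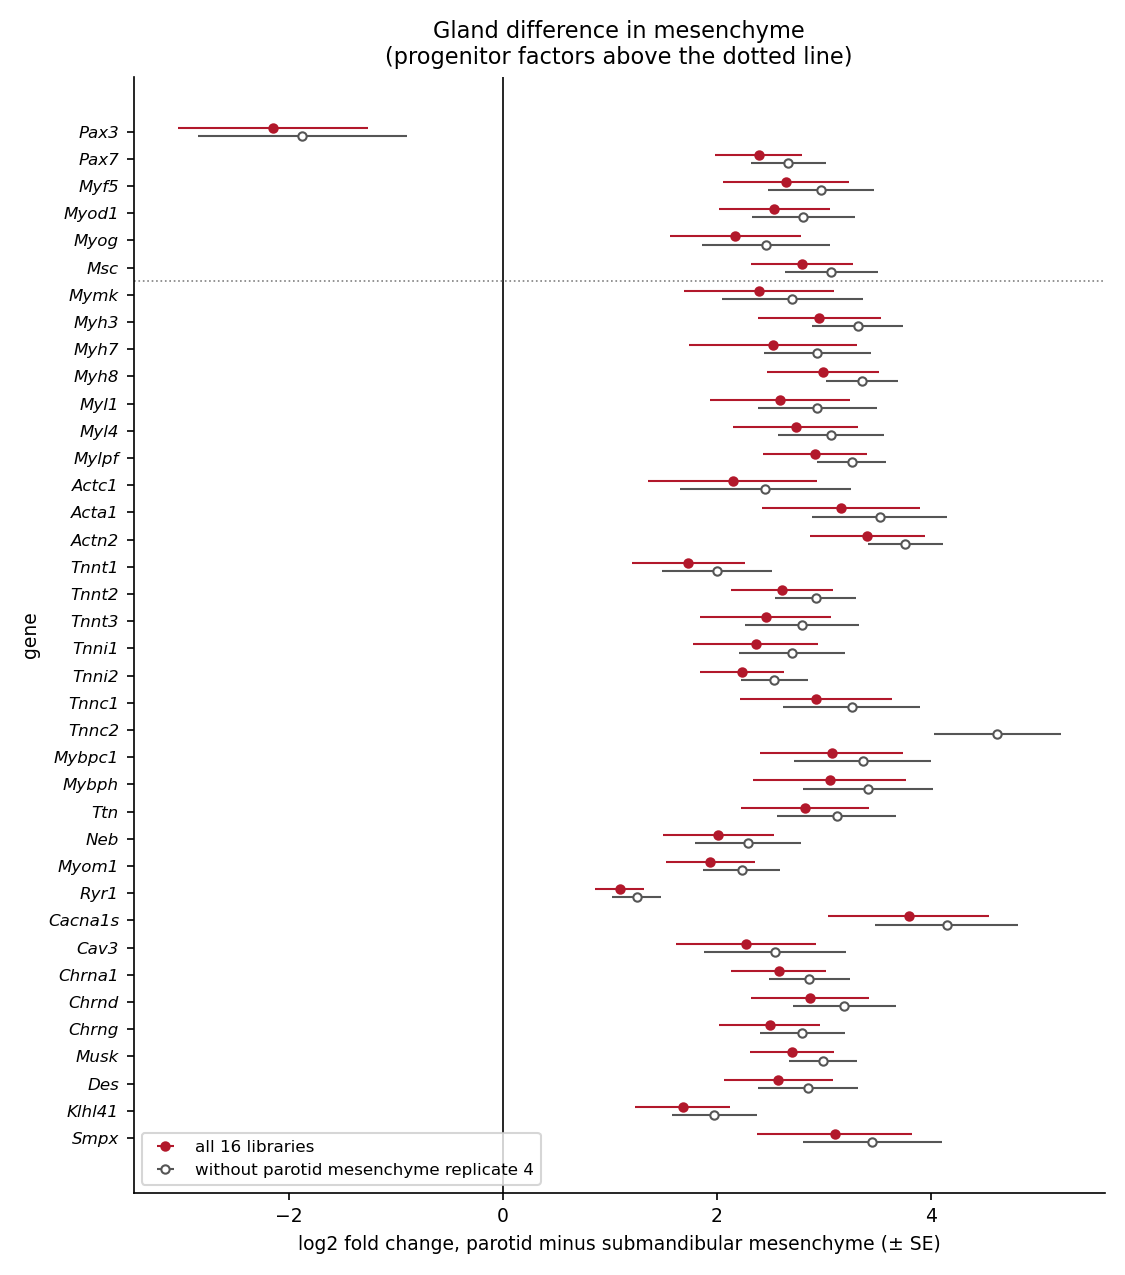
Log2 fold change of each tested gene between parotid and submandibular mesenchyme with its SE, fitted to all 16 libraries (filled points) and without parotid mesenchyme replicate 4 (open points), with the progenitor factors above the dotted line. Every gene except Pax3 lies to the right of 0 in both fits, and leaving out the replicate moves the median from 2.58 to 2.93.

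Of the fusion and thick-filament genes, all 7 members were called higher in parotid mesenchyme. Mymk, encoding the fusion protein myomaker, had 28.8, 33.5, 24.3 and 7.18 CPM in parotid mesenchyme, against 2.29, 5.49, 7.17 and 2.88 CPM in submandibular mesenchyme (edgeR log2 fold change 2.39 ± 0.70, SE, adjusted p = 0.0194). In epithelium, Mymk had 0, 0, 0.0471 and 0.963 CPM in parotid epithelium, against 0, 0, 0 and 0 CPM in submandibular epithelium, so 2 of 8 epithelial libraries held any count. Without 1 of parotid replicate 2, submandibular replicate 1 or submandibular replicate 4 its adjusted p was 0.053 to 0.0579, and it was 0.116 by DESeq2 and 0.0746 with no filter on low counts.

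Myh3, the embryonic heavy chain, had 193, 194, 199 and 27.8 CPM in parotid mesenchyme, against 13.3, 17.6, 31.9 and 16.3 CPM in submandibular mesenchyme (edgeR log2 fold change 2.96 ± 0.58, SE, adjusted p = 0.00114). Parotid replicates 1 to 3 lay close together, and replicate 4 lay within the submandibular range. Myh8, the perinatal heavy chain, had 49.3, 47.1, 47.1 and 6.39 CPM in parotid mesenchyme, against 2.60, 3.79, 7.32 and 5.11 CPM in submandibular mesenchyme (edgeR log2 fold change 2.99 ± 0.52, SE, adjusted p = 0.000365), with the same pattern. Myh7, the slow and beta-cardiac heavy chain, averaged 5.43 ± 3.69 CPM in parotid mesenchyme and 0.945 ± 0.707 CPM in submandibular mesenchyme (SD, n = 4 each), and parotid replicate 4 (0.0933 CPM) lay below all 4 submandibular libraries (edgeR log2 fold change 2.52 ± 0.79, SE, adjusted p = 0.0199). Its adjusted p was 0.0515 without parotid replicate 3, 0.0541 without submandibular replicate 1 and 0.0586 without submandibular replicate 2. It was also 0.066 with no filter on low counts and 0.0773 in a fit to the mesenchymal libraries alone. Reads of the 3 heavy chain genes can be shared between near-identical exons, and Myh7 overlaps genes on the other strand, among them Mhrt, which these unstranded libraries cannot separate from it.

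Among the light chains, Myl1, the fast essential chain, had 64.4, 55.6, 50.4 and 9.37 CPM in parotid mesenchyme, against 5.10, 7.93, 11.1 and 5.60 CPM in submandibular mesenchyme (edgeR log2 fold change 2.59 ± 0.65, SE, adjusted p = 0.00645). In epithelium, Myl1 had 0, 0, 0.330 and 1.69 CPM in parotid epithelium, against 0.0359, 0.0403, 0 and 0.0366 CPM in submandibular epithelium. The only epithelial value above 1 CPM was replicate 4 of the parotid. Myl4, the embryonic and atrial essential chain, had 40.5, 35.5, 29.7 and 6.90 CPM in parotid mesenchyme, against 3.47, 4.14, 5.77 and 3.48 CPM in submandibular mesenchyme (edgeR log2 fold change 2.74 ± 0.58, SE, adjusted p = 0.00181). In epithelium, Myl4 had 0.466, 0.422, 0.565 and 2.84 CPM in parotid epithelium, against 1.08, 0.523, 0.159 and 0.696 CPM in submandibular epithelium. Both layers of both glands thus held Myl4 counts, with the parotid mesenchyme highest. Mylpf, the fast regulatory chain, had 105, 92.8, 67.9 and 15.7 CPM in parotid mesenchyme, against 6.32, 8.73, 14.9 and 7.29 CPM in submandibular mesenchyme (edgeR log2 fold change 2.92 ± 0.48, SE, adjusted p = 0.00026), and its lowest parotid library was just above its highest submandibular one.

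The thin filament and Z-disc held the member with the highest level per kilobase, and 2 of these 3 genes were called higher. Actc1, the cardiac alpha-actin that is the main sarcomeric actin of embryonic skeletal muscle, had 554, 532, 461 and 136 CPM in parotid mesenchyme, against 68.1, 95.7, 145 and 71.6 CPM in submandibular mesenchyme. Its group values overlapped by one pair of libraries, replicate 4 of the parotid and replicate 3 of the submandibular gland, and it missed the threshold (edgeR log2 fold change 2.15 ± 0.79, SE, adjusted p = 0.0516). It passed in edgeR without parotid mesenchyme replicate 4 (adjusted p = 0.0349) and without any 1 of parotid epithelium replicates 1 (0.035), 2 (0.0358), 3 (0.0481) and 4 (0.00078). In a fit to the 8 mesenchymal libraries alone the edgeR adjusted p was 0.0081, and with a filter of a mean of 1 CPM in a group it was 0.0462. In epithelium, Actc1 had 0.169, 0.0937, 0.518 and 11.7 CPM in parotid epithelium, against 0.251, 0.0805, 0.0530 and 0.440 CPM in submandibular epithelium. Replicate 4 of parotid epithelium stood far above the other 7 epithelial libraries.

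Acta1, the skeletal alpha-actin of later fibres, had 99, 92.1, 79.02 and 12.3 CPM in parotid mesenchyme, against 3.72, 6.73, 12.2 and 8.87 CPM in submandibular mesenchyme (edgeR log2 fold change 3.16 ± 0.74, SE, adjusted p = 0.00406). Its lowest parotid value exceeded its highest submandibular value narrowly. In epithelium, Acta1 had 0.254, 0, 0.706 and 3.51 CPM in parotid epithelium, against 0.0359, 0.0805, 0.212 and 0.147 CPM in submandibular epithelium. Actn2, an alpha-actinin of the Z-disc, had 129.9, 116, 99.3 and 16.6 CPM in parotid mesenchyme, against 5.20, 7.38, 14.7 and 6.80 CPM in submandibular mesenchyme (edgeR log2 fold change 3.41 ± 0.54, SE, adjusted p = 0.00018), without overlap. In epithelium, Actn2 had 1.23, 1.78, 1.74 and 3.95 CPM in parotid epithelium, against 1.80, 1.29, 1.48 and 2.42 CPM in submandibular epithelium, so it was present in every library. Reads of Actc1 and Acta1, whose coding sequences are alike, may be split between them by the counting.

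Troponin, the calcium switch of the thin filament, has subunits in fibre-type versions, and all 6 tested members were called higher in parotid mesenchyme. Tnnt1, the slow skeletal tropomyosin-binding subunit, had 164, 119, 111 and 45.2 CPM in parotid mesenchyme, against 28.8, 30.2, 44.96 and 27.7 CPM in submandibular mesenchyme (edgeR log2 fold change 1.73 ± 0.53, SE, adjusted p = 0.0198). It was the smallest difference among the troponins, and its lowest parotid library was barely above its highest submandibular one. Its adjusted p was 0.0621 without parotid replicate 1, and 0.0504 to 0.0553 without submandibular replicate 1, 2 or 4. It was 0.0615 by DESeq2 and 0.0632 with no filter on low counts. In epithelium, Tnnt1 had 0.381, 0.562, 0.330 and 4.24 CPM in parotid epithelium, against 0.575, 0.0805, 0.901 and 0.366 CPM in submandibular epithelium, again highest in parotid replicate 4. Tnnt2, the cardiac and embryonic version, had 55.7, 66.3, 46.5 and 13.4 CPM in parotid mesenchyme, against 4.84, 6.98, 13.4 and 4.57 CPM in submandibular mesenchyme (edgeR log2 fold change 2.61 ± 0.47, SE, adjusted p = 0.000511). In epithelium, Tnnt2 had 0.932, 0.281, 0.283 and 1.20 CPM in parotid epithelium, against 1.005, 0.644, 0.477 and 0.549 CPM in submandibular epithelium. Tnnt3, the fast version, had 13.9, 14.1, 11.99 and 2.42 CPM in parotid mesenchyme, against 1.27, 1.80, 2.94 and 1.69 CPM in submandibular mesenchyme (edgeR log2 fold change 2.46 ± 0.61, SE, adjusted p = 0.00511). In epithelium, Tnnt3 had 0.127, 0, 0.330 and 0.818 CPM in parotid epithelium, against 0.395, 0.242, 0.742 and 0.110 CPM in submandibular epithelium. The glands overlapped for Tnnt3, again through parotid replicate 4, and nearly touched for Tnnt2.

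Tnni1, the slow inhibitory subunit, had 81.7, 77.9, 63.4 and 13.8 CPM in parotid mesenchyme, against 8.97, 11.1, 16.8 and 9.08 CPM in submandibular mesenchyme (edgeR log2 fold change 2.36 ± 0.58, SE, adjusted p = 0.00566), with overlap at parotid replicate 4. In epithelium, Tnni1 had 0.212, 0.141, 0.518 and 2.60 CPM in parotid epithelium, against 0.467, 0.161, 0.212 and 0.586 CPM in submandibular epithelium. Tnnc1, the slow and cardiac calcium-binding subunit, had 94.7, 67.8, 69.2 and 14.2 CPM in parotid mesenchyme, against 5.86, 6.48, 13.4 and 6.64 CPM in submandibular mesenchyme (edgeR log2 fold change 2.92 ± 0.71, SE, adjusted p = 0.00529). In epithelium, Tnnc1 had 0.466, 0.0937, 0.188 and 3.56 CPM in parotid epithelium, against 0.144, 0.443, 0 and 0.293 CPM in submandibular epithelium. Tnni2, the fast inhibitory subunit, averaged 7.64 ± 3.48 CPM in parotid mesenchyme and 1.62 ± 0.535 CPM in submandibular mesenchyme (SD, n = 4 each; edgeR log2 fold change 2.24 ± 0.40, SE, adjusted p = 0.000313). Tnnc2, the fast calcium-binding subunit, had only 85 counts in parotid mesenchyme and 4 in submandibular mesenchyme, a ratio of 19.7 with a 95% counting interval of 7.40 to 73.8, and no count in any epithelial library. Of the 4 counts in submandibular mesenchyme each library had 1, and Tnnc2 overlaps Ube2c on the other strand.

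The other thick-filament and the giant proteins were all called higher, 5 of 5. Ttn, encoding titin, the spring that spans the sarcomere from Z-disc to M-band, had 161, 125, 110.1 and 35.5 CPM in parotid mesenchyme, against 11.2, 15.3, 20.6 and 13.9 CPM in submandibular mesenchyme (edgeR log2 fold change 2.82 ± 0.60, SE, adjusted p = 0.0021). In epithelium, Ttn had 1.65, 1.73, 1.41 and 10.5 CPM in parotid epithelium, against 2.87, 1.21, 1.91 and 0.842 CPM in submandibular epithelium. Neb, encoding nebulin, which runs along the actin filament, had 97.02, 78.6, 63.7 and 26.2 CPM in parotid mesenchyme, against 12.1, 17.3, 24.5 and 11.8 CPM in submandibular mesenchyme (edgeR log2 fold change 2.01 ± 0.52, SE, adjusted p = 0.00735). In epithelium, Neb had 0.297, 0.703, 0.895 and 4.04 CPM in parotid epithelium, against 0.682, 0.443, 0.159 and 0.256 CPM in submandibular epithelium. For both, parotid replicate 4 was the lowest of its group in mesenchyme and the highest of its group in epithelium.

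Mybpc1, the slow myosin-binding protein C, had 37.7, 27.9, 24.7 and 8.77 CPM in parotid mesenchyme, against 2.35, 2.19, 4.18 and 3.05 CPM in submandibular mesenchyme (edgeR log2 fold change 3.07 ± 0.67, SE, adjusted p = 0.00212). In epithelium, Mybpc1 had 0, 0.0937, 0 and 1.40 CPM in parotid epithelium, against 0, 0, 0.0530 and 0 CPM in submandibular epithelium. Mybph, a related myosin-binding protein, had 39.6, 39.6, 33.02 and 5.27 CPM in parotid mesenchyme, against 1.94, 2.39, 6.96 and 2.83 CPM in submandibular mesenchyme (edgeR log2 fold change 3.05 ± 0.71, SE, adjusted p = 0.0037). In epithelium, Mybph had 0, 0, 0.0942 and 0.818 CPM in parotid epithelium, against 0.0718, 0.0805, 0 and 0.330 CPM in submandibular epithelium. Myom1, encoding myomesin of the M-band, had 18.5, 10.6, 11.1 and 3.92 CPM in parotid mesenchyme, against 2.19, 3.94, 2.53 and 2.83 CPM in submandibular mesenchyme (edgeR log2 fold change 1.94 ± 0.42, SE, adjusted p = 0.00169), with parotid replicate 4 just below submandibular replicate 2. In epithelium, Myom1 had 1.06, 0.422, 0.801 and 0.481 CPM in parotid epithelium, against 1.19, 0.403, 1.48 and 0.769 CPM in submandibular epithelium. Reads of Mybph and Myom1 cannot be separated by strand from the overlapping genes Adora1 and Myl12a.

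Of the calcium release and membrane genes, all 3 were called higher, and they held the smallest and the largest fitted fold change among the called members. Ryr1, the calcium release channel of the sarcoplasmic reticulum, had 16.3, 14.01, 15.4 and 9.28 CPM in parotid mesenchyme, against 4.84, 7.48, 6.60 and 6.91 CPM in submandibular mesenchyme (edgeR log2 fold change 1.09 ± 0.23, SE, adjusted p = 0.0015). It was higher in all 4 parotid libraries, replicate 4 included. Cacna1s, the voltage sensor of the transverse tubule, averaged 3.28 ± 1.85 CPM in parotid mesenchyme and 0.229 ± 0.152 CPM in submandibular mesenchyme (SD, n = 4 each; edgeR log2 fold change 3.79 ± 0.75, SE, adjusted p = 0.000839), from 272 and 18 counts, a CPM ratio of 13.98 with a 95% counting interval of 8.68 to 23.9. Cav3, the muscle caveolin, averaged 1.71 ± 0.954 CPM in parotid mesenchyme and 0.349 ± 0.180 CPM in submandibular mesenchyme (SD, n = 4 each; edgeR log2 fold change 2.27 ± 0.66, SE, adjusted p = 0.0123).

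The acetylcholine receptor is a pentamer whose gamma subunit is the fetal one. All 4 junction members were called higher and did not overlap between the glands. Chrna1, the alpha subunit, had 54.9, 52.8, 50.5 and 15.7 CPM in parotid mesenchyme, against 5.66, 8.03, 10.5 and 4.95 CPM in submandibular mesenchyme (edgeR log2 fold change 2.58 ± 0.44, SE, adjusted p = 0.000309). Chrng, the fetal gamma subunit, had 31.6, 29.6, 24.4 and 7.37 CPM in parotid mesenchyme, against 2.65, 4.64, 5.98 and 3.21 CPM in submandibular mesenchyme (edgeR log2 fold change 2.49 ± 0.47, SE, adjusted p = 0.000617). In epithelium, Chrna1 had 0.0424, 0.0469, 0.0471 and 0.674 CPM in parotid epithelium, against 0, 0, 0.0530 and 0.0366 CPM in submandibular epithelium. In epithelium, Chrng had 0.127, 0, 0.188 and 0.530 CPM in parotid epithelium, against 0.0718, 0, 0 and 0.0733 CPM in submandibular epithelium. Both stayed under 1 CPM in all 8 epithelial libraries. Chrne, the adult epsilon subunit and no member of the list, had 8 counts in all parotid mesenchyme libraries and 3 in submandibular mesenchyme.

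Chrnd, the delta subunit, had 14.7, 16.7, 12.2 and 3.31 CPM in parotid mesenchyme, against 1.02, 1.35, 2.99 and 1.03 CPM in submandibular mesenchyme (edgeR log2 fold change 2.87 ± 0.55, SE, adjusted p = 0.000645). Musk, the kinase that clusters the receptor at the synapse, had 14.9, 15.9, 16.3 and 4.57 CPM in parotid mesenchyme, against 1.27, 2.14, 2.27 and 2.23 CPM in submandibular mesenchyme (edgeR log2 fold change 2.70 ± 0.39, SE, adjusted p = 5.06e-05), the smallest adjusted p of the 37 members. In epithelium, Musk had 0.0424, 0.0469, 0 and 0.144 CPM in parotid epithelium, against 0.323, 0.121, 0.159 and 0.110 CPM in submandibular epithelium. It reached at most 0.323 CPM there.

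Among the last 4 genes, Des, the muscle intermediate filament desmin, had 146, 120.0, 111 and 41.1 CPM in parotid mesenchyme, against 14.5, 12.8, 20.7 and 22.3 CPM in submandibular mesenchyme (edgeR log2 fold change 2.57 ± 0.51, SE, adjusted p = 0.00122). By DESeq2 its adjusted p was 0.0831, at a log2 fold change of 2.56. In epithelium, Des had 0, 0, 0 and 1.011 CPM in parotid epithelium, against 0.467, 0.0403, 0.0530 and 0.0366 CPM in submandibular epithelium, with no count in 3 of 4 parotid libraries. Klhl41, a Kelch protein of the sarcomere, had 17.6, 15.6, 15.2 and 4.57 CPM in parotid mesenchyme, against 3.31, 4.29, 5.46 and 3.43 CPM in submandibular mesenchyme (edgeR log2 fold change 1.68 ± 0.45, SE, adjusted p = 0.00738). In epithelium, Klhl41 had 0.127, 0.656, 0.141 and 0.674 CPM in parotid epithelium, against 0.646, 0.242, 0.212 and 0.147 CPM in submandibular epithelium. Smpx, encoding a small protein of the muscle costamere, averaged 4.83 ± 3.12 CPM in parotid mesenchyme and 0.557 ± 0.260 CPM in submandibular mesenchyme (SD, n = 4 each; edgeR log2 fold change 3.10 ± 0.73, SE, adjusted p = 0.00326). Ckm, the muscle creatine kinase of mature fibres, had 23 counts in parotid mesenchyme and 5 in submandibular mesenchyme, and reached at most 0.590 CPM in any library.

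Levels between genes were compared per kilobase of exon (CPM per kb, over the union of the exons of a gene). In parotid mesenchyme Actc1 was highest, at 260.2 ± 119.8 CPM per kb (SD, n = 4), followed by Myog at 135 ± 61.7, Mylpf at 66.3 ± 37.4, Tnnc1 at 59.0 ± 32.5, Tnnt1 at 49.7 ± 22.2 and Acta1 at 46.0 ± 25.9. Within a library, Actc1 exceeded Myog and Myog exceeded Mylpf in 4 of 4 parotid libraries, while Mylpf exceeded Tnnc1 and Tnnc1 exceeded Tnnt1 in 3 of 4 and Tnnt1 exceeded Acta1 in 2 of 4. Replicate 4 was the lowest library for all 6 genes. Myod1 stood at 32.6 ± 13.1 CPM per kb, and Pax3 was lowest at 0.0762 ± 0.0913.

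Within a library the order of related genes was more regular. Per kilobase, Tnnt1 exceeded Tnnt3 in 8 of 8 mesenchymal libraries, by 6.05 to 13.4 times in the parotid and 10.99 to 16.2 times in the submandibular gland. Tnni1 exceeded Tnni2 by 2.27 to 3.59 and 2.40 to 3.66 times, and Tnnc1 exceeded Tnnc2 by 29.7 to 117 and 88.4 to 199.8 times, so in all 3 subunits the slow version was above the fast one in both glands. Myh3 exceeded Myh8 by 7.62 to 8.46 times in the parotid and 6.18 to 9.91 times in the submandibular gland. The sizes of all these ratios depend on the exon unions, which can be longer than the transcript in use. The union was 6057 bases for Myh3 and 11772 for Myh8, and in plain CPM their parotid mesenchyme means were 153.5 and 37.5. Actc1 exceeded Acta1 by 5.31 to 10.6 times in the parotid and 7.66 to 17.4 times in the submandibular gland. Myog exceeded Myod1 by 3.74 to 4.92 times in the parotid and 3.29 to 7.11 times in the submandibular gland.

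Each gene was also divided by Myog in the same library. Of 38 genes, 13 had all 4 submandibular ratios below parotid replicates 1 to 3, and 2 had them all above, where the same ratio of all genes tested gave 1.03% below and 87.4% above. In 4 genes the submandibular libraries lay apart from all 4 parotid libraries, where 50.3% of all genes did so. Myog itself was lower in submandibular mesenchyme, so a gene at equal level in both glands has a higher ratio there. The shares over all genes are thus set by the divisor and are no chance level for the members. The 4 members that lay apart are Pax3, Msc, Actn2 and Chrnd. The Actn2 ratio was 0.395 to 0.610 in parotid replicates 1 to 3 and 0.223 in replicate 4, against 0.157 to 0.218 in submandibular mesenchyme.

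The Myh3 ratio was 0.658 to 0.907 in parotid replicates 1 to 3 and 0.374 in replicate 4, against 0.375 to 0.522 in submandibular mesenchyme. For Acta1 the ratio was 0.312 to 0.465 and 0.165 in those parotid libraries, against 0.127 to 0.285 in submandibular mesenchyme. Parotid replicate 4 lay within the submandibular range for Acta1 and just below it for Myh3. Actc1 gave 1.80 to 2.60 and 1.84 in the parotid, against 2.03 to 2.32 in submandibular mesenchyme, with overlap. Msc gave 0.135 to 0.168 and 0.170 in the parotid, against 0.0855 to 0.129 in submandibular mesenchyme. These ratios are descriptions, were chosen after the values were seen, and have no test.

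**Figure D4:**
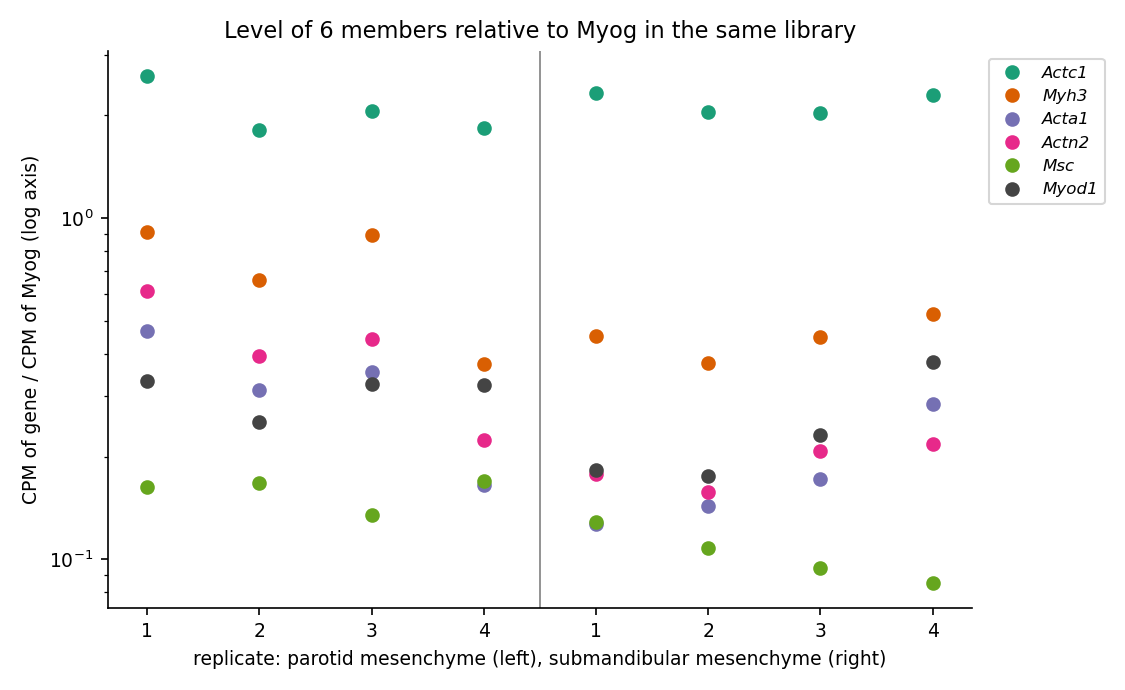
CPM of 6 members divided by the CPM of Myog in the same library, on a log axis, for the 4 parotid (left) and 4 submandibular (right) mesenchyme libraries. Actn2 lies at 0.395 to 0.610 in parotid replicates 1 to 3 and at 0.157 to 0.218 in the submandibular libraries, with parotid replicate 4 at 0.223, while Actc1 overlaps.

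In the epithelium a few contractile genes had steady counts and most had next to none. Mean levels reached 1 CPM for 14 of 39 genes in parotid epithelium and for 5 of 39 in submandibular epithelium, against 37 in parotid mesenchyme and 33 in submandibular mesenchyme. Replicate 4 carried the parotid count: without it 7 of 39 genes averaged at least 1 CPM, and the 4 parotid libraries had 8, 6, 7 and 19 genes at that level. Between the epithelia, 4 of 37 members were called higher in the parotid and 0 lower, where 11.2% of all genes were called higher and 9.72% lower. The 4 are Myog, Myh8, Ryr1 and Chrnd, and their share of the members is near that over all genes. The count depended on the setting: it was 13 by DESeq2, 2 in a fit to the epithelial libraries alone and 2 to 7 when 1 library was left out. With 1 library left out, 2452 to 4540 of all genes were called in either direction. The shares over all genes in the DESeq2 and epithelial fits are not given here, so those counts are not read as results about the members.

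Myh3 had 5.21, 4.69, 11.3 and 15.9 CPM in parotid epithelium, against 13.2, 26.98, 10.6 and 17.9 CPM in submandibular epithelium. The submandibular values lay at the level of submandibular mesenchyme, and the 2 epithelia overlapped (edgeR log2 fold change -0.89 ± 0.57, SE, adjusted p = 0.288). Per kilobase, Mylpf (4.23 ± 1.91 CPM per kb in parotid and 3.20 ± 0.773 in submandibular epithelium) exceeded Myh3 (1.53 ± 0.885 and 2.84 ± 1.19; SD, n = 4 each) in 4 of 4 parotid and 3 of 4 submandibular libraries. Mylpf had 4.32, 2.39, 4.00 and 7.27 CPM in parotid epithelium, against 4.49, 2.98, 2.60 and 3.52 CPM in submandibular epithelium (edgeR log2 fold change 0.39 ± 0.50, SE, adjusted p = 0.621). Ryr1 had 5.85, 8.999, 6.03 and 7.32 CPM in parotid epithelium, against 4.49, 4.07, 2.81 and 5.68 CPM in submandibular epithelium, with no overlap (edgeR log2 fold change 0.72 ± 0.23, SE, adjusted p = 0.039). The edgeR adjusted p of Ryr1 was 0.114 without parotid epithelium replicate 2, 0.0748 without replicate 4, and 0.0723, 0.0792 and 0.0962 without submandibular epithelium replicates 1, 2 and 3. It was 0.0517 with no scaling beyond library totals and 0.0636 in a fit to the epithelial libraries alone. Exons of Ryr1 overlap Gm26604 and Gm44408 on the other strand, which these unstranded libraries cannot separate from it.

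Chrnd had 3.601, 4.73, 1.84 and 4.19 CPM in parotid epithelium, against 0.251, 0.282, 0.636 and 1.36 CPM in submandibular epithelium, all 4 parotid values above all 4 submandibular ones (edgeR log2 fold change 2.49 ± 0.58, SE, adjusted p = 0.00632). Chrng, the neighbouring gene on the same strand (chr1:87204657-87212694, plus strand; Chrnd at chr1:87190607-87200070, plus strand; GRCm38), stayed under 1 CPM in the same libraries. In parotid epithelium Chrnd was at or above the level of parotid mesenchyme replicate 4 (3.31 CPM) in 3 of 4 libraries. Myh8 had 2.20, 0.844, 1.51 and 2.26 CPM in parotid epithelium, against 0.144, 0.121, 0.159 and 0.440 CPM in submandibular epithelium, also without overlap (edgeR log2 fold change 2.92 ± 0.72, SE, adjusted p = 0.0104).

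Myog was called higher in parotid epithelium (edgeR log2 fold change 5.77 ± 1.87, SE, adjusted p = 0.0431) on 121 counts against 2, a CPM ratio of 68.8 with a 95% counting interval of 18.6 to 574, and replicate 4 held most of the 121. Its edgeR adjusted p was 0.184 without that library, where Myh8 (0.0274) and Chrnd (0.0158) were still called. The Myog call was also lost, at 0.0509 to 0.101, without parotid epithelium replicate 3, any 1 submandibular epithelium library, parotid mesenchyme replicate 1 or submandibular mesenchyme replicate 1, 2 or 4, and with no filter on low counts (0.099).

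**Figure D5:**
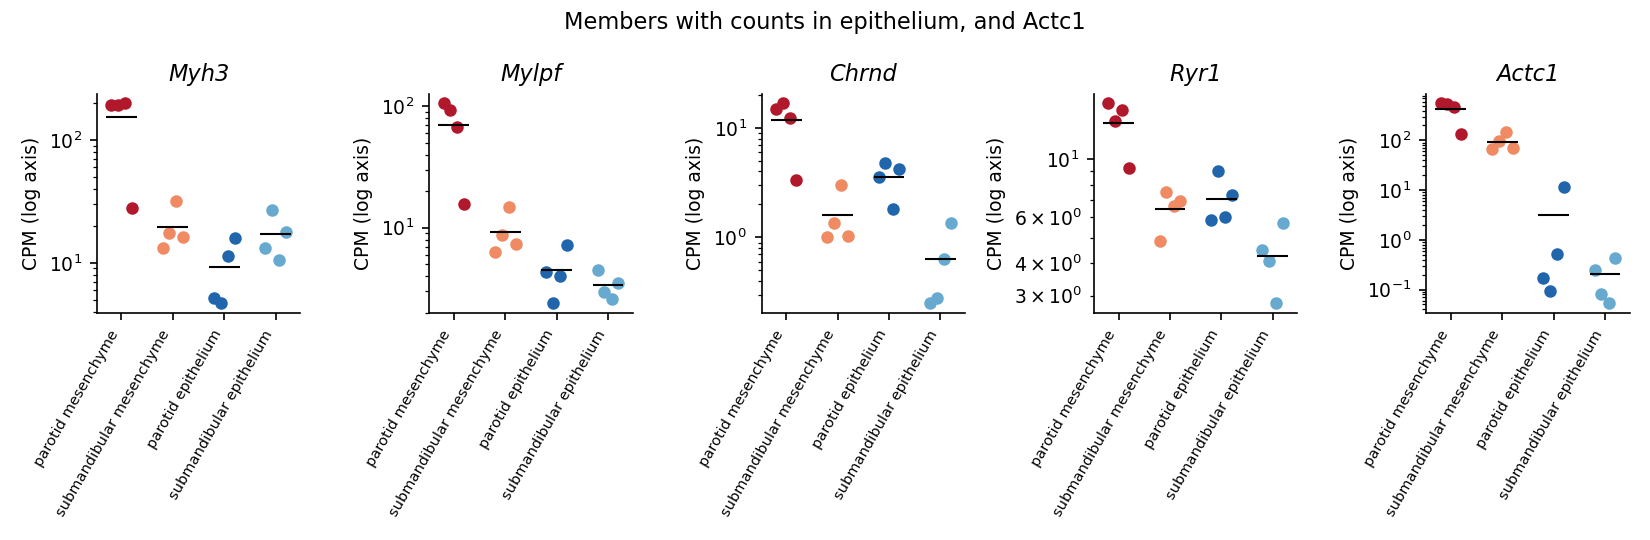
CPM of Myh3, Mylpf, Chrnd, Ryr1 and Actc1 in each library on log axes that differ between panels, with a line at the mean of each group. Myh3 in submandibular epithelium (10.6 to 26.98 CPM) lies within reach of submandibular mesenchyme (13.3 to 31.9 CPM), Chrnd separates the epithelia, and Actc1 in parotid epithelium rests on replicate 4 at 11.7 CPM.

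Replicate 4 of parotid epithelium carried most members. It had 6.79 CPM of progenitor factors, against 0.281 to 1.27 CPM in the other 3 parotid libraries, and 96.2 CPM of the other 33 genes, against 29.1 to 34.4 CPM. These were 2.18% of the mean of parotid mesenchyme for the progenitor factors and 5.61% for the other genes, and the 3 other libraries averaged 0.216% and 1.80%. The same library had 468 CPM of erythroid genes, against 52.4 to 106 CPM in the other 3, and 19.9 CPM of endothelial genes, against 10.5 to 14.3 CPM. Its mesenchymal markers summed to 453 CPM, within the 152 to 526 CPM of the other 3. Their part in the muscle values was not tested.

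Between the layers, nearly all members were higher in mesenchyme. In the parotid gland, 36 of 37 were called higher in mesenchyme than in epithelium and 0 lower, where 33.5% of all genes were called higher and 31.4% lower, and the median log2 fold change was 6.00. Pax3 was the exception (edgeR log2 fold change 2.23 ± 1.16, SE, adjusted p = 0.102); DESeq2 called it (adjusted p = 0.0434), as did edgeR without submandibular mesenchyme replicate 4 (0.047). Des had the largest fitted difference (edgeR log2 fold change 8.72 ± 0.78, SE, adjusted p = 1.41e-07) and Ryr1 the smallest of those called (edgeR log2 fold change 0.96 ± 0.23, SE, adjusted p = 0.00145). Chrnd came next from below (edgeR log2 fold change 1.71 ± 0.51, SE, adjusted p = 0.00784).

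In the submandibular gland, 34 of 37 were called higher in mesenchyme and 0 lower, where 33.7% of all genes were called higher and 33.3% lower, with a median of 4.38. Myh3 (edgeR log2 fold change 0.20 ± 0.55, SE, adjusted p = 0.768), Smpx (edgeR log2 fold change 1.47 ± 0.85, SE, adjusted p = 0.14) and Chrnd (edgeR log2 fold change 1.33 ± 0.59, SE, adjusted p = 0.0576) did not pass. Chrnd passed in edgeR without submandibular epithelium replicate 4 (adjusted p = 0.00846), parotid mesenchyme replicate 4 (0.0254) or submandibular mesenchyme replicate 1 (0.0497) or 4 (0.05), with DESeq2 size factors (0.0465) or no scaling (0.0407), and in DESeq2 (0.0177). Ryr1 was called (edgeR log2 fold change 0.59 ± 0.24, SE, adjusted p = 0.0343), but its adjusted p was 0.0511 to 0.102 without submandibular mesenchyme replicate 2, 3 or 4 or submandibular epithelium replicate 1, 2 or 3. Mylpf (edgeR log2 fold change 1.44 ± 0.49, SE, adjusted p = 0.0169) had an adjusted p of 0.0645 without submandibular mesenchyme replicate 3. Mymk and Myf5 had no count in submandibular epithelium, so their mesenchymal levels were at least 148-fold and 56.2-fold higher, with the epithelium set at 3 counts over the group. The 2 layer comparisons share no library, but each shares 1 group with each gland comparison.

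Whether the gland difference depended on the layer was tested as an interaction, the gland difference in mesenchyme minus that in epithelium. It was called positive for 7 of 37 members and negative for 0, where 12.2% of all genes were called positive and 8.67% negative. None of the 6 progenitor factors was called. Their epithelial counts were near 0, and the SE of the interaction was 2.36 for Myog and 1.73 for Pax7 (log2). With replicate 4 of parotid mesenchyme and of parotid epithelium left out together, Myod1 was called (edgeR log2 fold change 4.04, adjusted p = 0.0236). Of the genes called with all 16 libraries, Musk had the largest interaction (edgeR log2 fold change 4.26 ± 0.87, SE, adjusted p = 0.00195), with 5 counts in parotid epithelium and 18 in submandibular epithelium. Myh3 followed (edgeR log2 fold change 3.85 ± 0.80, SE, adjusted p = 0.00341), with gland differences of 2.96 ± 0.58 in mesenchyme and -0.89 ± 0.57 in epithelium (log2, SE).

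The remaining called genes were Tnni2 (edgeR log2 fold change 3.13 ± 0.70, SE, adjusted p = 0.00394), Actn2 (edgeR log2 fold change 3.11 ± 0.80, SE, adjusted p = 0.012), Tnnt2 (edgeR log2 fold change 2.62 ± 0.80, SE, adjusted p = 0.0289), Mylpf (edgeR log2 fold change 2.52 ± 0.68, SE, adjusted p = 0.0158) and Myom1 (edgeR log2 fold change 2.39 ± 0.64, SE, adjusted p = 0.0128). All encode proteins of the sarcomere. Tnnt2 is the least secure, with adjusted p of 0.0507 to 0.0868 without any 1 of submandibular mesenchyme replicates 1, 2 and 4, parotid epithelium replicates 2 and 3 or submandibular epithelium replicate 1. With no filter on low counts the adjusted p was 0.107 for Tnnt2 and 0.0645 for Mylpf. Without parotid epithelium replicate 4, 12 members were called positive. Over all fits without 1 library, 3152 to 3922 of all genes were called in either direction.

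Muscle genes outside the 39 were taken from 5 lists of 112 genes, of which 93 were tested. In mesenchyme 65 were called higher in the parotid gland and 4 lower, with a median log2 fold change of 1.85. Over all genes tested, 20.8% were called higher and 13.7% lower, with a median of 0.04. These shares stand beside each count of the muscle lists below. The 5 lists summed to 2584 to 3611 CPM in parotid and 2014 to 2339 CPM in submandibular mesenchyme. They also summed to 2138 to 2604 CPM in parotid and 1778 to 2234.5 CPM in submandibular epithelium. Much of their level thus comes from genes that are not confined to muscle, and a call in them is no measure of muscle content. Of 26 other myogenic regulators tested, 16 were called higher and 2 lower. Met, the receptor of migrating muscle precursors that other mesenchyme can also express, had a mean of 176 CPM in parotid mesenchyme and 4.61 CPM in submandibular mesenchyme (edgeR log2 fold change 5.25 ± 0.24, SE, adjusted p = 2.72e-10). Tcf3, encoding the dimerization partner E2A of the myogenic factors, had 472 CPM in parotid, against 317 CPM in submandibular mesenchyme (edgeR log2 fold change 0.57 ± 0.10, SE, adjusted p = 0.000406), and Tcf12, encoding the related partner HEB, was lower, with 239 CPM in parotid, against 406 CPM in submandibular mesenchyme (edgeR log2 fold change -0.77 ± 0.07, SE, adjusted p = 2.91e-07).

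Of 33 other sarcomere genes tested, 21 were called higher and 2 lower. Tpm2, beta-tropomyosin, had 213 CPM in parotid, against 62.3 CPM in submandibular mesenchyme (edgeR log2 fold change 1.77 ± 0.26, SE, adjusted p = 6.17e-05). Actn3, the fast-fibre alpha-actinin, had 35.4 CPM in parotid, against 5.96 CPM in submandibular mesenchyme (edgeR log2 fold change 2.57 ± 0.30, SE, adjusted p = 4.61e-06). Pdlim3, of the Z-disc, had 62.02 CPM in parotid, against 30.3 CPM in submandibular mesenchyme (edgeR log2 fold change 1.03 ± 0.28, SE, adjusted p = 0.00948), and Nebl, encoding nebulette, had 5.13 CPM in parotid, against 1.61 CPM in submandibular mesenchyme (edgeR log2 fold change 1.66 ± 0.24, SE, adjusted p = 4.52e-05). The 2 lower ones, Myh6 and Tnni3, encode cardiac isoforms.

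Of 20 calcium handling and membrane genes, 17 were called higher and 0 lower. Atp2a1, the calcium pump of fast fibres, had 47.4 CPM in parotid, against 11.4 CPM in submandibular mesenchyme (edgeR log2 fold change 2.05 ± 0.38, SE, adjusted p = 0.000504). Srl, encoding sarcalumenin, had 48.7 CPM in parotid, against 25.5 CPM in submandibular mesenchyme (edgeR log2 fold change 0.94 ± 0.14, SE, adjusted p = 5.74e-05). Cacnb1, a subunit of the voltage-gated calcium channel (edgeR log2 fold change 0.48 ± 0.15, SE, adjusted p = 0.0173), and Tmem38a, a cation channel of the reticulum (edgeR log2 fold change 0.32 ± 0.11, SE, adjusted p = 0.0315), differed less. Of 6 other endplate genes, 5 were called higher, among them Chrnb1, the beta subunit of the receptor, with 24.5 CPM in parotid, against 5.94 CPM in submandibular mesenchyme (edgeR log2 fold change 2.04 ± 0.32, SE, adjusted p = 8.94e-05). Ache, acetylcholinesterase (edgeR log2 fold change 2.59 ± 0.37, SE, adjusted p = 3.64e-05), and Rapsn, the scaffold rapsyn (edgeR log2 fold change 2.52 ± 0.54, SE, adjusted p = 0.00158), were called higher too, as was Lrp4, the agrin receptor (edgeR log2 fold change 0.72 ± 0.25, SE, adjusted p = 0.0331). Of 8 metabolic genes, 6 were called higher, such as Pgam2, the muscle phosphoglycerate mutase (edgeR log2 fold change 2.23 ± 0.39, SE, adjusted p = 0.000291), Klhl31 (edgeR log2 fold change 1.67 ± 0.51, SE, adjusted p = 0.0168), Pygm, the muscle glycogen phosphorylase (edgeR log2 fold change 1.35 ± 0.31, SE, adjusted p = 0.00242), and Fitm1 (edgeR log2 fold change 2.08 ± 0.44, SE, adjusted p = 0.00134).

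Markers of other cell types were read beside these counts, where 20.8% of all genes were called higher in parotid mesenchyme and 13.7% lower. Of 9 genes tested from the motor neuron list, 6 were called higher in parotid mesenchyme and 1 lower. Isl1 and Isl2 were not called higher, and Mnx1 was not tested. The list summed to 285 to 669 CPM in parotid mesenchyme, against 23.2 to 117 CPM in submandibular mesenchyme. Its most abundant genes were Stmn2 (edgeR log2 fold change 4.61 ± 0.55, SE, adjusted p = 1.77e-05), Tubb3 (edgeR log2 fold change 2.30 ± 0.68, SE, adjusted p = 0.0166), Isl2 (edgeR log2 fold change -1.82 ± 0.69, SE, adjusted p = 0.0508) and Isl1 (edgeR log2 fold change 0.23 ± 0.42, SE, adjusted p = 0.724). Slc18a3, the vesicular acetylcholine transporter, had 8.47 to 20.3 CPM in parotid, against 0.0510 to 0.516 CPM in submandibular mesenchyme. Mnx1, a transcription factor of motor neurons, had 1 count in parotid and 2 in submandibular mesenchyme, too few to compare the glands. Parotid replicate 4, lowest in muscle genes, was highest in this list.

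Of 8 tendon genes, 7 were called higher in parotid mesenchyme. Their sum was 1016 to 1754 CPM in parotid mesenchyme, against 594 to 1215 CPM in submandibular mesenchyme. Kera (edgeR log2 fold change 1.46 ± 0.52, SE, adjusted p = 0.043), Chodl (edgeR log2 fold change 3.88 ± 0.47, SE, adjusted p = 1.63e-05) and Thbs4 (edgeR log2 fold change 3.56 ± 0.52, SE, adjusted p = 8.16e-05) passed, and Egr1 did not (edgeR log2 fold change 0.18 ± 0.39, SE, adjusted p = 0.767). Scx, the defining tendon factor, had 24.4 CPM in parotid, against 3.20 CPM in submandibular mesenchyme. Without parotid replicate 4, 6 of the 8 were called. Of 15 smooth muscle and pericyte genes 9 were called higher and 0 lower, with sums of 760.4 to 969 CPM in parotid, against 338 to 394 CPM in submandibular mesenchyme. Acta2, smooth muscle alpha-actin, had 208 ± 93.2 CPM in parotid, against 40.0 ± 7.72 CPM in submandibular mesenchyme (SD, n = 4 each). Myh11, the smooth muscle heavy chain, averaged 3.20 CPM in parotid, against 5.91 CPM in submandibular mesenchyme (edgeR log2 fold change -0.89 ± 0.47, SE, adjusted p = 0.156).

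The 9 cardiac genes summed to 5.20 to 10.96 CPM in parotid mesenchyme, against 9.48 to 12.5 CPM in submandibular mesenchyme. Of them, Nppa, Nppb and Myl7 reached at most 0.153 CPM in any mesenchymal library. Of the cardiac genes, 1 of 6 tested was called higher in parotid mesenchyme and 4 lower. Among neural crest genes, 1 of 10 was called higher, Erbb3 (edgeR log2 fold change 1.83 ± 0.45, SE, adjusted p = 0.00543), and 3 lower, among them Snai2 (edgeR log2 fold change -0.53 ± 0.11, SE, adjusted p = 0.00128). Of 10 macrophage genes 1 was called higher, and edgeR called 0 of 10 endothelial and 0 of 6 erythroid genes, with 2 endothelial and 0 erythroid genes lower at an unadjusted p under 0.05 and 0 higher. Mesenchymal identity genes, of which 4 of 14 were called higher, summed to 24841 to 37367 CPM in parotid, against 14287 to 16608 CPM in submandibular mesenchyme, with parotid replicate 4 the highest. Over all genes tested, 20.8% were called higher and 13.7% lower. The small neural crest, macrophage and mesenchymal identity counts are not read as results about those lists. The part of any of these cell types in the muscle gene values was not tested.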

How the data were processed

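RNA of 16 libraries (4 per group) was prepared with SMART-Seq v4 and Nextera XT, which do not mark strand, per the labels. Reads were aligned with STAR 2.5.2a to GRCm38/mm10, per the submitters' processing notes (for the read counter and the annotation: not given in the sources used here). As deposited, the counts are raw whole-number counts per gene feature. The authors also deposited CPM on TMM-scaled library totals, a signal made with edgeR per the submitters' processing notes, which was used to match symbols; CPM recomputed here differed from it by at most 4.34% for the members. A filtered count table of 23400 features held the same counts and was not used further. The 92 spike-in features stayed out of library sizes and tests.

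Counts of all 16 libraries were fitted in edgeR 4.0.16 (R 4.3.3; limma 3.58.1) with TMM scaling, filterByExpr over the 4 groups, 1 coefficient per group and robust quasi-likelihood dispersion, leaving 18191 genes, with Benjamini-Hochberg adjustment over all of them and a threshold of 0.05. The code was tested on simulated data. Library totals were 16912258 to 27646844 counts. Counting intervals (95%, exact binomial) and the floor of 3 counts cover counting error only. No 2 replicates were alike within sampling noise (chi-square per gene 9.56 to 47.9 over 24 pairs). The labels call replicates biological; nothing says how animals were pooled, so p-values measure the spread between these samples.

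The members and all lists were chosen with earlier results of these data known. Every library is given for the progenitor factors and for members reaching a mean of 10 CPM in a group; from each further muscle list and other cell list up to 4 genes of highest mean CPM are named, of the muscle lists only those called. A gene that this rule names among the myogenic regulators is not reported here. Genes named besides these were chosen after their values were seen. Alternatives were other scalings, DESeq2 1.42.0, other filters, a fit to the compared groups only, a replicate block and leaving out each library. Gene lengths are exon unions of GENCODE models on GRCm38, and promoters are from RefSeq, GRCm38.p6. Besides the members named with such a limit above, Msc, Myl4, Mybpc1, Ttn, Neb, Cacna1s, Des and Ckm overlap exons on the other strand. Reads without strand cannot separate these genes.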

Additional observations from a re-analysis of the deposited data

Results flagged for a closer look

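In groups of 4 libraries, the highest or lowest value was checked for its gap to the next one, in groups with a mean of at least 1 CPM. Of 96 group values checked, 19 stood apart, where chance gives about 5% for a single check. The checks are not independent, because the genes share libraries and the summed levels hold the same genes. An unusual library can flag many genes at once, so the 19 are not separate events. They fall on 4 libraries. Replicate 4 of parotid mesenchyme stood apart on the low side for Myod1 (24.1 CPM), Myh3 (27.8 CPM), Myh8 (6.39 CPM), Chrna1 (15.7 CPM) and Musk (4.57 CPM). Replicate 3 of submandibular mesenchyme stood apart on the high side for Pax7 (1.91 CPM), Tnnt1 (44.96 CPM), Tnnc1 (13.4 CPM) and Chrnd (2.99 CPM), and replicate 1 on the low side for Musk (1.27 CPM).

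Replicate 4 of parotid epithelium stood apart on the high side for Myog (4.81 CPM), Myl4 (2.84 CPM), Actc1 (11.7 CPM), Tnnt1 (4.24 CPM), Tnnc1 (3.56 CPM), Ttn (10.5 CPM) and Neb (4.04 CPM), and for the summed progenitor factors (6.79 CPM) and the 33 other genes (96.2 CPM).

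The gland difference in mesenchyme exceeded that in epithelium, by the interaction test of edgeR, for 7 genes. The log2 interaction was 4.26 for Musk, 3.85 for Myh3, 3.13 for Tnni2, 3.11 for Actn2, 2.62 for Tnnt2, 2.52 for Mylpf and 2.39 for Myom1.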

How the results depend on the processing

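Leaving out 1 library at a time gave 33 to 37 members higher in parotid mesenchyme and 0 to 1 lower (5325 to 6685 of all genes called). It gave 2 to 7 members higher in parotid epithelium (2452 to 4540 of all genes called), and 6 to 12 positive interactions (3152 to 3922 of all genes called). The numbers over all genes count both directions. Between submandibular layers the Myh3 log2 difference ranged from -0.13 (without mesenchyme replicate 3, adjusted p = 0.861 in edgeR) to 0.51. This change of sign of Myh3 was the only one among the single genes tallied below. Other members changed sign too. Without parotid epithelium replicate 4, for example, the fitted gland difference of Myod1 in epithelium moved from 0.50 to -1.29 (log2). With no scaling beyond library totals, 1 member was lower in parotid mesenchyme. In epithelium 13 members were higher by DESeq2 and 2 in a fit to the epithelial libraries alone. The replicate block gave 2 higher there and 34 in mesenchyme, and lost Myh7 in mesenchyme (adjusted p = 0.0982 in edgeR), Ryr1 (0.0558) and Myog (0.0788) in epithelium and the Tnnt2 interaction (0.053), and gained Pax3 between parotid layers (0.0337); replicate numbers do not pair the samples (correlations of same-numbered deviations -0.137 to 0.279). Leaving out replicate 4 of parotid mesenchyme and of parotid epithelium together was chosen after seeing the data. It gave 2 members higher and 2 lower in epithelium and 18 positive interactions. The share over all genes in that setting is not given here. The causes were not tested. In mesenchyme DESeq2 lost Tnnt1 (0.0615), Des (0.0831), Myog (0.0962) and Mymk (0.116). Single genes were tallied over the settings for all tested members only in the gland comparison of the mesenchymes. In the other comparisons a chosen few were tallied, and for the interaction only the genes called in the main fit. Over these values, 1346 kept direction and side of the threshold, 57 lost a call, 25 gained one and 1 changed sign. Calls gained by the other members are not in this tally. Many members have few counts in the epithelial libraries, and their fitted differences there have large errors.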
